A study of Mus musculus with 20 samples.

Results

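Plakoglobin, encoded by Jup, is described here beside 8 other genes of cell-cell junctions in the mouse thoracic aorta: the catenins Ctnnb1, Ctnna1 and Ctnnd1, the plakophilin Pkp4, the desmosomal linker Dsp and the cadherins Cdh2, Cdh11 and Cdh13. The 9 genes were taken by symbol from the 21078 genes of the deposited table of read counts. Jup was chosen by its measured slope over gamma dose, along which its count was lower, and the others by their protein families. The gamma values of Jup are therefore given as a description, with no test. All 9 genes passed the filter, a mean of 5 counts or more per mouse, which left 13124 genes for testing.

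The study asked how high energy protons and gamma rays change gene expression in the vessel wall across doses. The mice were wildtype C57BL/6 males, adults aged 10 to 12 weeks. There were 10 mice in the Proton group and 10 in the Gamma group, whose rays came from a cesium source, and each group held 1 mouse at each of 0, 5, 10, 25, 50, 75, 100, 125, 150 and 200 cGy. The dose was given to the whole body, the mouse at 0 cGy in each group was a sham control, and aortas were collected 4 h later. No dose was repeated within a radiation type, so the spread of a gene was estimated around its dose trend. Libraries were made from whole vessels, in which fewer cells of a type and less RNA per cell cannot be told apart.

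Cadherins are membrane proteins that hold neighbouring cells together through their outer domains. In adherens junctions their tails bind beta-catenin (Ctnnb1) or plakoglobin, alpha-catenin (Ctnna1) links these to actin, and p120-catenin (Ctnnd1) binds nearer the membrane and keeps the cadherin at the cell surface. Plakoglobin also belongs to desmosomes, where desmoplakin (Dsp) ties desmosomal cadherins to intermediate filaments, while beta-catenin outside junctions serves as the coactivator of canonical Wnt signalling. N-cadherin (Cdh2) and cadherin 11 (Cdh11) are classical cadherins of mesenchymal and muscle cells. T-cadherin (Cdh13) is held in the membrane by a lipid anchor and has no tail for catenins to bind, and Pkp4 is an armadillo protein related to p120-catenin.

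On mouse build mm9, Jup lies on chromosome 11 from 100230272 to 100259077 on the minus strand and Dsp on chromosome 13 from 38243197 to 38290446 on the plus strand. Ctnnb1 lies on chromosome 9 from 120838334 to 120869625, and Ctnnd1 and Pkp4 both lie on chromosome 2, from 84440228 to 84490922 and from 58998907 to 59193265. Cdh11 and Cdh13 lie on chromosome 8, from 105156895 to 105309011 and from 120807633 to 121848821, and each overlaps another gene annotated on its own strand. The counts cover the exons of each gene on the sense strand.

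The promoters of Jup and Dsp are shown because these genes had the steepest slopes of the 9, leaving aside the sparsely counted Cdh2, and opposite signs. Each window runs from 250 bases before to 50 bases after the start of transcription, written 5′ to 3′ on the strand of the gene, from the RefSeq annotation of build GRCm38.p6. Jup is at chr11:100397741-100398040 on the minus strand and Dsp at chr13:38151044-38151343 on the plus strand. Capitals mark matches, on either strand, to GGGCGG (the GC box), to CCAAT (the CCAAT box), to CAGGTG (an E-box) and to CTTTGA (the core of the site of TCF and LEF factors). No capitals overlap.
Jup: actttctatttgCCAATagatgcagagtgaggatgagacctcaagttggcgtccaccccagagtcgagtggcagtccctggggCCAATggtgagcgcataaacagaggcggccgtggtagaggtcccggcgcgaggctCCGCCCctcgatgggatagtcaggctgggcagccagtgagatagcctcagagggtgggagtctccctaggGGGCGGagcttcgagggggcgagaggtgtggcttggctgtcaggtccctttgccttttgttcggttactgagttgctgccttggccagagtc
Dsp: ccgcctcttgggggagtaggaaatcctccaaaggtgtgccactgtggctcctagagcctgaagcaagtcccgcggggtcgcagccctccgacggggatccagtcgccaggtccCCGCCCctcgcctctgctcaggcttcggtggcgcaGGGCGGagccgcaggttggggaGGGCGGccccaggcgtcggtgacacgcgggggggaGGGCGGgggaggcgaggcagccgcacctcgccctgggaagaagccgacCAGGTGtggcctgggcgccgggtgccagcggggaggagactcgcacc
The Jup window held 2 matches to GGGCGG and 2 to CCAAT, and the Dsp window held 4 to GGGCGG and 1 to CAGGTG. Neither held CTTTGA. Of 32851 promoter windows of the same length, 35.7% held GGGCGG, 37.4% CCAAT, 20.2% CAGGTG and 16% CTTTGA. G and C made up 60.7% of the Jup window and 73% of the Dsp window. These matches describe the letters of the windows, and binding was not measured.

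Ctnnb1 was the most abundant member, with a median level of 186 CPM per kb of exon over the 20 mice, where CPM are counts scaled to a common library size. Ctnna1 followed at 106 and Pkp4 at 95.2 on this scale, then Cdh13 at 50.5, Dsp at 39.7, Ctnnd1 at 38.5 and Jup at 17.6. Cdh11 was at 5.24 and Cdh2 at 0.759. The length used covers all annotated exons of a gene, 11153 bases for Cdh13 and 6436 for Jup. Their longest coding transcripts had 3785 and 3205 bases, while Ctnna1 had 3698 by both measures. The order of the genes and the overlaps below therefore hold for this length and could differ per transcript. The per-mouse levels of Ctnnb1, from 146 to 217, did not overlap those of Ctnna1, from 92.5 to 119, while those of Ctnna1 overlapped those of Pkp4, from 59.6 to 108. Levels of Cdh13 overlapped those of Pkp4, Dsp and Ctnnd1, and Jup, from 10.8 to 22.3, lay below all of these and above Cdh11, from 3.11 to 7.52. The lowest Cdh11 level lay below the highest Cdh2 level, 3.76, which came from a single mouse. Jup was thus less abundant than beta-catenin in every mouse.

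The desmosomal partners of plakoglobin were unevenly represented. Dsp had a mean count of 2315, and Perp, a membrane protein of desmosomes and a p53 target, had 817. The desmosomal cadherin Dsg2 had a count of 0 to 2 in 19 mice and Dsc2 a count of 0 to 4, while Dsg1c and Dsc3 did not exceed 1 count in any mouse. A count of 3, or 4.96e-05% of a library, was taken as the smallest the depth can show. The plakophilins Pkp1 and Pkp3 stayed at 1 or below and at 5 or below in each mouse. E-cadherin, Cdh1, had at most 1 count, and VE-cadherin of endothelial cells, Cdh5, had a mean count of 355. These levels are set side by side in the plot of junction genes.

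**Figure D1:**
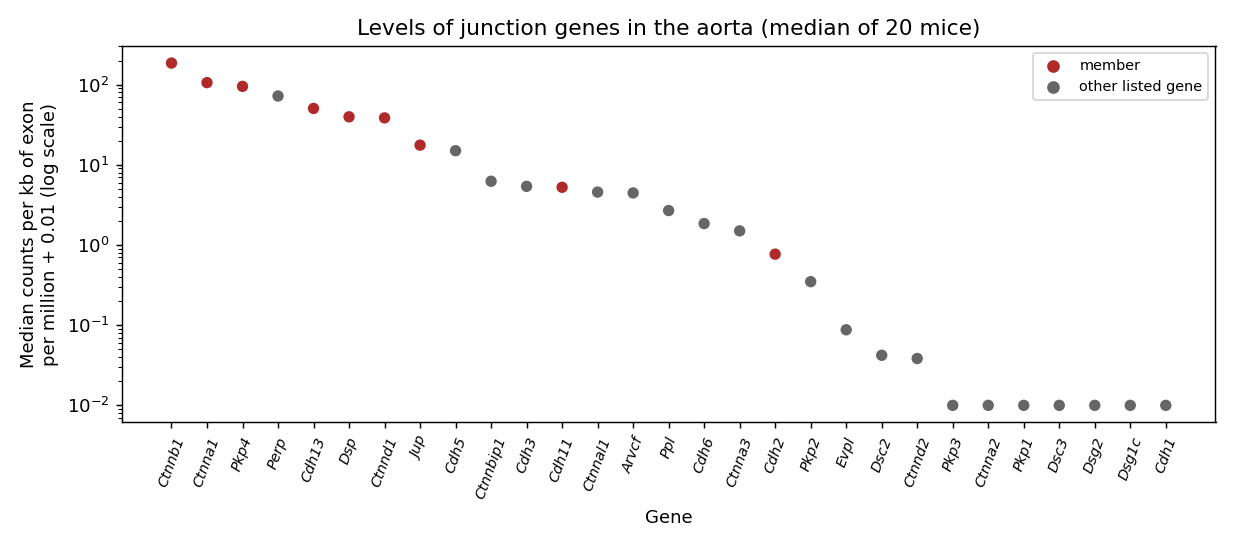
Median CPM per kb of exon over 20 mice, plus 0.01 and on a log scale, for the 9 members (red) and other listed junction genes (grey). Ctnnb1 stands highest at 186, Jup is at 17.6, and the desmosomal cadherins lie at the bottom.

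The 20 libraries held between 6051657 and 6058006 counts each. Counting error alone came to 4.91% at the lowest Jup count, 415, to 1.23% at the highest Ctnnb1 count, 6634, and to 25% at the lowest Cdh2 count, 16, and read counts without molecular identifiers are not independent molecules. Smooth muscle markers defined the tissue, with summed counts of 7 genes from 245608 to 333618 in 19 mice. The Proton mouse at 75 cGy stood apart. Its smooth muscle sum was 166061, its sum of 8 cardiomyocyte markers was 21224 against at most 1282 elsewhere, and its sum of 6 adipocyte markers was 34034 against at most 12663. Its Myh6, the cardiac myosin heavy chain, had 6721 counts against 0 to 105 in the others. Results that rest on this mouse are given with and without it.

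Gene deviations followed the GC content of transcripts differently in the 4 mice at 150 and 200 cGy. Over 9702 genes, the correlation of a gene's deviation from its mean with its transcript GC content was -0.401 to -0.349 in these 4 mice and -0.0182 to 0.283 in the other 16. Genes are not independent replicates, and these values describe the libraries. The Jup transcript had 58.8% GC, more than 91.8% of the tested genes with a value, and the other members had 44.7 to 51.9%. The top doses and this property coincided, so dose and library composition cannot be told apart over the step from 125 to 150 cGy. Slopes were therefore also fitted over 0 to 125 cGy, and over all doses with an offset for GC content and length in each library.

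Jup counts in the Gamma mice were 689 at 0 cGy, 831 at 5 cGy, 790 at 10 cGy, 700 at 25 cGy and 711 at 50 cGy. They were 567 at 75 cGy, 619 at 100 cGy, 567 at 125 cGy, 429 at 150 cGy and 415 at 200 cGy. The 5 mice from 0 to 50 cGy all lay above the 5 from 75 to 200 cGy, a cut placed after the values were seen. The 2 highest doses gave the 2 lowest counts. The mean count at 150 and 200 cGy was 422, a change of -38.3% from the mean of 684 ± 96.7 (SD, n = 8) at 0 to 125 cGy. The fitted log2 slope, on which the gene was chosen, was -0.48 per 100 cGy with a standard error (SE) of 0.07, a change of -28.1% for each 100 cGy. Over 0 to 125 cGy alone it was -0.41 (SE 0.11). With offsets for GC content and length it was -0.35 (SE 0.06), and leaving out each mouse in turn gave slopes from -0.53 to -0.43.

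The Proton mice were not used to choose Jup. Their Jup counts were 753 at 0 cGy, 859 at 5 cGy, 770 at 10 cGy, 640 at 25 cGy, 797 at 50 cGy and 755 at 75 cGy. They were 685 at 100 cGy, 677 at 125 cGy, 516 at 150 cGy and 574 at 200 cGy. The counts at 150 and 200 cGy were the lowest of the 10, and among the 8 others the lowest, 640, came at 25 cGy. The mean count at the 2 top doses, 545, was a change of -26.5% from the mean of 742 ± 71.4 (SD, n = 8) at the other doses. The log2 slope was -0.25 (SE 0.07) per 100 cGy, with an adjusted p of 0.113 in edgeR's quasi-likelihood test across all 13124 genes, just short of the threshold of 0.1.

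The proton call on Jup turned on the setting. The adjusted p was 0.0826 without the pair of mice at 75 cGy, 0.0472 with DESeq2, 0.0899 with library sizes in place of TMM factors and 0.0928 with a stricter filter of 50 counts in the mean. It was 0.168 with 1 count as the filter, 0.295 on dose rank and 0.978 on log2 dose. Leaving out a single mouse brought it under 0.1 in 4 of 20 fits, without the Proton mouse at 25, 75 or 125 cGy or the Gamma mouse at 150 cGy, and the range over the 20 fits was 0.0731 to 0.69. The slope over 0 to 125 cGy was -0.17 (SE 0.11), with an adjusted p of 0.983. With GC and length offsets it was -0.13 (SE 0.06), with an adjusted p of 0.57.

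At matched doses, the Gamma mouse had the lower Jup count at 8 of 10 doses. At the 6 doses from 50 cGy upward it was lower at each, by 66 counts at 100 cGy and by 188 counts at 75 cGy, and at 10 and 25 cGy it was higher by 20 and 60. The sham mice, with no radiation, already differed, with 689 counts against 753. The proton slope minus the gamma slope was 0.23 (SE 0.10). This difference and the counts compared at matched doses are a description, because both include the gamma values used for the choice. How many of all tested genes split in this way by dose was not counted.

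**Figure D2:**
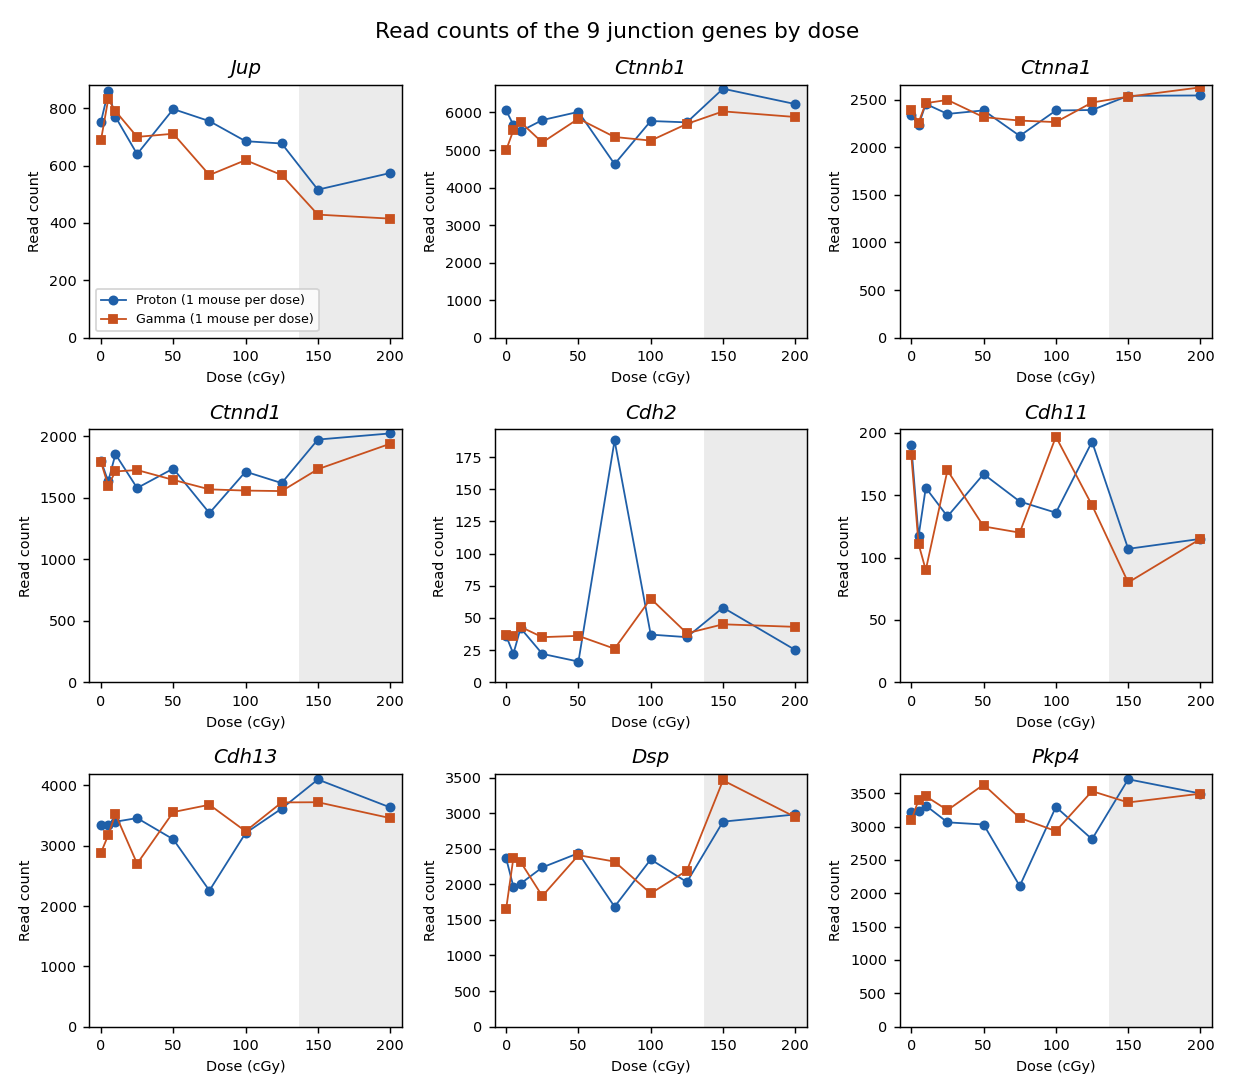
Read counts of the 9 members against dose in cGy for Proton (blue circles) and Gamma mice (orange squares), with 1 mouse per point and 150 to 200 cGy shaded. Jup is lowest at 150 and 200 cGy in both types, Dsp is highest there, and Cdh2 reaches 188 in the Proton mouse at 75 cGy.

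None of the 9 members passed the adjusted p of 0.1 for the proton slope, for which 1.76% of all tested genes did, 210 upward and 21 downward. Jup aside, none of the 8 others passed for the gamma slope, for which 7.65% of tested genes did, 714 upward and 290 downward. At an unadjusted p under 0.05, Jup was the only member for the proton slope and Dsp the only one of the 8 for the gamma slope, where 13.3% and 18.4% of all tested genes were. The median slope over all tested genes was 0.00 for proton and 0.01 for gamma radiation. The slope difference was called in 0% of tested genes by edgeR and by DESeq2, with 254 and 240 genes at an unadjusted p under 0.05, and none of the 8 members was called.

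Over 0 to 125 cGy, none of the members was called either, Jup in the Gamma mice aside. The share of all tested genes called there was 0.107% for proton and 0.259% for gamma radiation. A rank test, which permutes the doses exactly and asks only for an ordered trend, called no member in the Proton mice and none of the 8 in the Gamma mice, against 0.0762% and 1.73% of tested genes. Jup in the Proton mice had an exact permutation p of 0.0149 in this test and an adjusted p of 0.707.

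**Figure D3:**
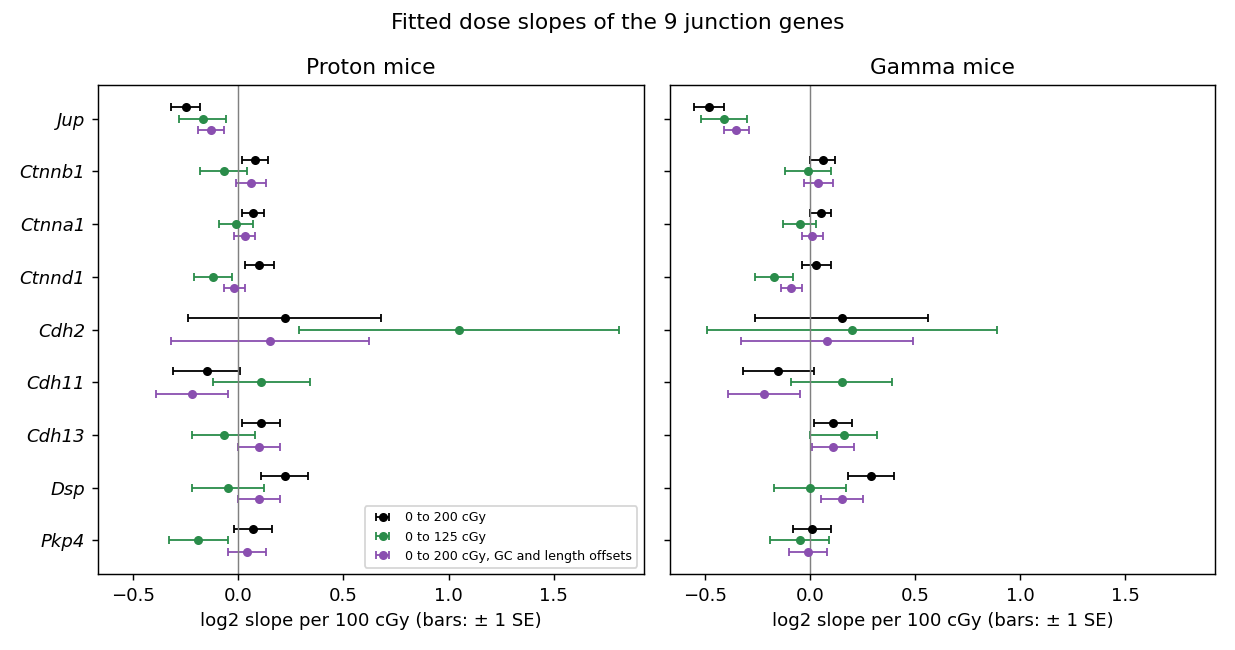
Fitted log2 slopes per 100 cGy with bars of 1 SE for the 9 members, in Proton (left) and Gamma mice (right), from all doses (black), 0 to 125 cGy (green) and all doses with GC and length offsets (purple). The Jup gamma slope is -0.48, -0.41 and -0.35 in these fits, and the Dsp gamma slope is 0.29, near 0 and 0.15.

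Desmoplakin had the opposite sign to plakoglobin. Dsp counts in the Gamma mice were 1654 at 0 cGy, 2368 at 5 cGy, 2314 at 10 cGy, 1834 at 25 cGy and 2409 at 50 cGy. They were 2319 at 75 cGy, 1871 at 100 cGy, 2192 at 125 cGy, 3460 at 150 cGy and 2944 at 200 cGy. The 2 top doses stood above all 8 others, among which no order with dose appeared. In the Proton mice Dsp ranged from 1685 to 2437 with a median of 2134 at 0 to 125 cGy, and reached 2880 at 150 cGy and 2981 at 200 cGy. The mean counts at the 2 top doses exceeded those at the lower doses by 51% in the Gamma mice and by 37.3% in the Proton mice.

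The Dsp slope was 0.29 (SE 0.11) for gamma and 0.22 (SE 0.11) for proton radiation, with adjusted p-values of 0.166 and 0.397. No single mouse left out brought the gamma value under the threshold, the lowest being 0.108. Over 0 to 125 cGy the slopes were -0.0002 and -0.05 (both SE 0.17). With GC and length offsets they were 0.15 and 0.10 (both SE 0.10), with adjusted p-values of 0.607 and 0.913. The Dsp transcript had 51.6% GC, close to the median of 50.4%. Its length, the other term of the offsets, was 9538 bases, against 3205 to 6362 in the other members. The part of length in the Dsp slopes was not tested.

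Beta-catenin had no slope that passed the test. Ctnnb1 in the Proton mice ranged from 4625 to 6055 with a median of 5755 at 0 to 125 cGy, and was 6634 at 150 cGy and 6224 at 200 cGy. In the Gamma mice it ranged from 4998 to 5836 with a median of 5436, and was 6030 and 5880 at the top doses. In counts, the top doses exceeded all lower ones in both types, by 13.9% and 9.27% in the mean. In TMM-scaled CPM, 987 and 988 at the top gamma doses lay below 995 at 50 cGy. The slopes were 0.08 and 0.06 (both SE 0.06), with adjusted p-values of 0.69 and 0.717.

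Alpha-catenin varied over a narrow range. Ctnna1 ranged from 2119 to 2455 in the Proton mice and from 2259 to 2497 in the Gamma mice at 0 to 125 cGy. At the top doses it was 2540 and 2544 after protons and 2531 and 2629 after gamma rays, in counts again above every lower dose. In TMM-scaled CPM, 414 at 150 cGy of gamma rays lay below 416 at 10 cGy. Its slopes were 0.07 and 0.05 (both SE 0.05), with adjusted p-values of 0.575 and 0.667.

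The p120-catenin gene was not ordered by dose over the full range. Ctnnd1 in the Gamma mice was 1790 at 0 cGy, 1599 at 5 cGy, 1714 at 10 cGy, 1725 at 25 cGy and 1645 at 50 cGy, then 1568, 1558 and 1554 at 75, 100 and 125 cGy, and 1732 and 1939 at 150 and 200 cGy. The counts from 75 to 125 cGy were the 3 lowest, and the count at 200 cGy was the highest. The slope over 0 to 125 cGy was -0.17 (SE 0.09) with an adjusted p of 0.905, and the exact permutation rank test over these 8 mice gave p = 0.0154 and an adjusted p of 0.43. In the Proton mice Ctnnd1 ranged from 1375 to 1854 up to 125 cGy and was 1973 and 2023 at the top doses. The slopes over all doses were 0.10 for proton and 0.03 for gamma radiation (both SE 0.07), with adjusted p-values of 0.582 and 0.897.

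Pkp4 and Cdh13 were abundant and showed no trend that passed the test. Pkp4 ranged from 2934 to 3630 with a median of 3381.5 over the 10 Gamma mice, and from 2110 to 3711 with a median of 3232.5 over the 10 Proton mice. Cdh13 ranged from 2702 to 3721 and from 2256 to 4098 in the same order, with medians of 3491.5 and 3368. For both genes the Proton mouse at 75 cGy gave the lowest of the 20 counts. The slopes of Pkp4 were 0.07 for proton and 0.01 for gamma radiation and those of Cdh13 were 0.11 for both (all SE 0.09), with adjusted p-values from 0.607 to 0.966.

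The classical cadherins were at low counts. Cdh11 ranged from 107 to 193 in the Proton mice and from 80 to 197 in the Gamma mice, with medians of 140.5 and 122.5. Its slope was -0.15 in both types (SE 0.16 and 0.17) and 0.11 and 0.15 over 0 to 125 cGy, with adjusted p-values of 0.739 or more in all 4. Cdh11 varied up and down between neighbouring doses in both types, as did marker sums of other cells. The 3 Gamma mice with the most Cdh11, 182 at 0 cGy, 170 at 25 cGy and 197 at 100 cGy, had the 3 highest sums of 7 fibroblast markers, from 48941 to 60640, against 25545 to 42477 in the other Gamma mice. Their sums of 9 endothelial markers were 6779 to 7373, against 2613 to 5762 in the others except 8470 at 200 cGy. In the Proton mice the lowest fibroblast sums, 30787 and 32451, came at 150 and 200 cGy, where Cdh11 was also lowest. The part of these cells in the Cdh11 counts was not tested.

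Cdh2 had 188 counts in the Proton mouse at 75 cGy and 16 to 65 counts in the other 19 mice. The same mouse had 84 counts of the cardiac plakophilin Pkp2 against 4 to 23 elsewhere, 30 of Dsg2 against at most 2, and 29 of Dsc2 against at most 4, beside its cardiomyocyte markers. N-cadherin, Pkp2, Dsg2 and Dsc2 are all known from the junctions between heart muscle cells. Junction genes were not all high in this mouse. Dsp had 1685 counts against a mean of 2348 in the other mice, Ctnnb1 4625 against 5732 and Ctnna1 2119 against 2406. Jup had 755 against a mean of 663. The part of heart muscle cells in the Cdh2 count was not tested. The proton slope of Cdh2 over 0 to 125 cGy was 1.05 (SE 0.76) with this mouse and 0.14 (SE 0.33) without the pair at 75 cGy. Over all doses the slopes were 0.22 (SE 0.46) and 0.15 (SE 0.41) for proton and gamma radiation, with adjusted p-values of 0.921 and 0.919. Leaving out 1 mouse moved the proton slope of Cdh2 to between 0.03 (SE 0.49), without the Proton mouse at 5 cGy, and 0.75 (SE 0.55), without the Proton mouse at 200 cGy, and it was called in none of these fits.

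**Figure D4:**
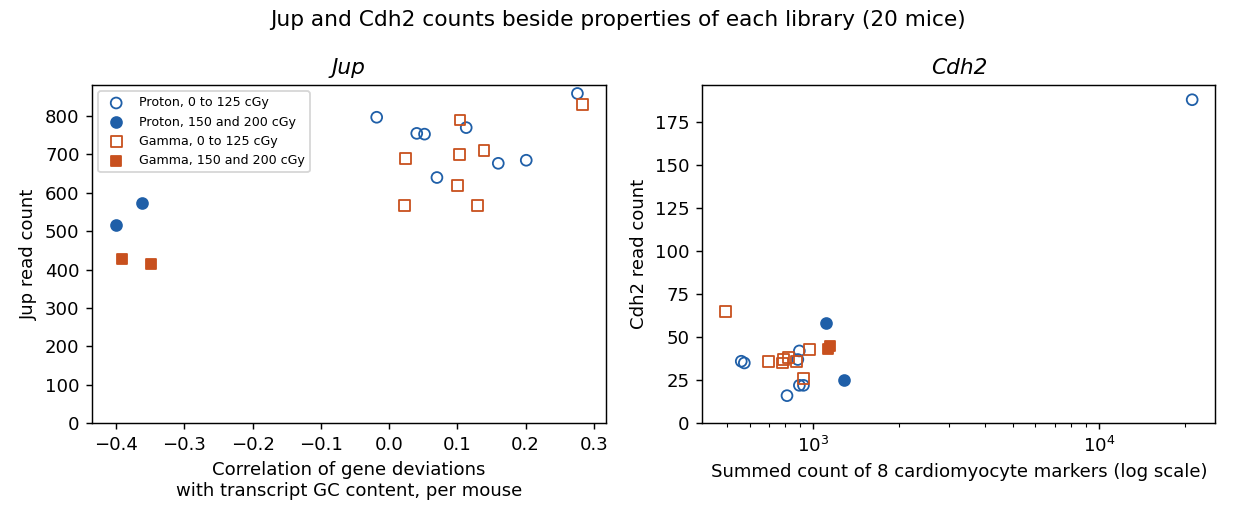
Left, Jup read count against the correlation of gene deviations with transcript GC content in each of 20 mice, with filled symbols for 150 and 200 cGy, which lie between -0.401 and -0.349. Right, Cdh2 read count against the summed count of 8 cardiomyocyte markers on a log scale, where the Proton mouse at 75 cGy stands alone at 188 and 21224.

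The step between 125 and 150 cGy was described, in counts, after the values had been seen. In the Proton mice, both counts at 150 and 200 cGy lay above every lower dose for 6 of the 9 members and below for 2, against 10.8% and 8.25% of all tested genes. In the Gamma mice this was so for 3 members above and 1 below, against 13.4% and 8.31%. In both types together, Ctnnb1, Ctnna1 and Dsp lay above and Jup below, against 8.01% and 3.22% of tested genes. In TMM-scaled CPM the Proton numbers were also 6 and 2, but only Dsp lay above and Jup below in the Gamma mice and in both types, against 13.8% and 8.35% of tested genes in the Gamma mice and 8.64% and 2.79% in both. Jup is counted here although its gamma values chose it. Among the Proton mice, Ctnnd1, Cdh13 and Pkp4 also lay above and Cdh11 below.

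Plakoglobin and its partners can be set against each other within a library, per length of exon. The Jup level was 8.75 to 12.9% of the Ctnnb1 level in the Proton mice at 0 to 125 cGy and 7.89 to 11.9% in the Gamma mice. At 150 and 200 cGy it was 6.16 and 7.31% after protons and 5.64 and 5.59% after gamma rays. Relative to Dsp, the Jup level was 42.8 to 67.0% and 36.6 to 62.3% at the lower doses, 26.8 and 28.8% at the top proton doses, and 18.5 and 21.1% at the top gamma doses. Both ratios were lower in each of the 4 mice at the top doses than in any of the other 16. Within each type this follows from the counts, in which Jup lay below and Ctnnb1 and Dsp above every lower dose. It is no separate result, and the gamma values of Jup chose the gene. Since Dsp and Ctnnb1 were themselves higher at the top doses, the ratios show unequal change and not the size of change in Jup. These transcripts differ in GC content, and the part of GC content in the ratios was not tested.

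**Figure D5:**
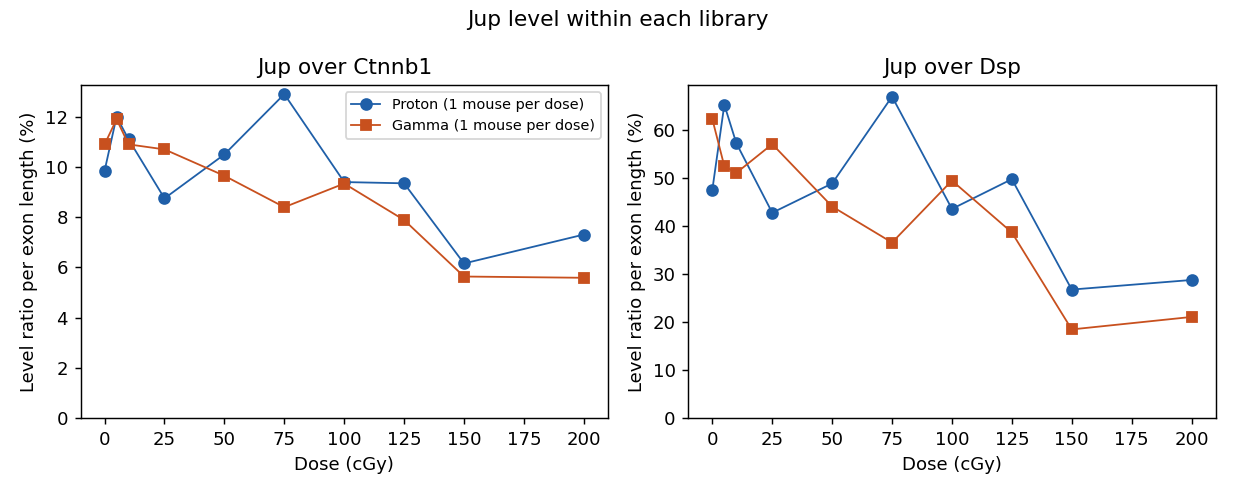
Jup level as a percentage of the Ctnnb1 level (left) and of the Dsp level (right) per exon length against dose, with 1 mouse per point. At 150 and 200 cGy the ratios to Ctnnb1 are 6.16 and 7.31% in Proton and 5.64 and 5.59% in Gamma mice, below all other doses.

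Other junction genes were taken from 4 lists of catenins and armadillo relatives, desmosomal cadherins and plakins, other cadherins, and actin linkers with nectins. Of 66 listed genes 59 were in the table and 42 were tested, the 9 members included. The proton slope passed upward in 1 and downward in 0 of the 42. Jup aside, the gamma slope passed upward in 3 and downward in 1. Over all tested genes the shares called were 1.76% and 7.65%. Over 0 to 125 cGy none of them passed in either type, Jup in the Gamma mice aside. Without the pair at 75 cGy the proton numbers were 2 and 1. For gamma radiation, Jup aside, 4 genes then passed upward, and 1 cadherin and 4 linkers passed downward. Of all tested genes, 2.86% and 11% were called without the pair. The median slopes were 0.06 and 0.04 for the catenin list (10 genes), 0.10 and 0.08 for the desmosomal list (3), -0.15 and 0.11 for the cadherins (13) and -0.03 and -0.01 for the linkers (16), proton first.

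Cdh6, a cadherin best known from the kidney, rose in both radiation types. Its slope was 1.15 (SE 0.25, adjusted p = 0.0466) for proton and 0.98 (SE 0.26, adjusted p = 0.0423) for gamma radiation. It had 12 to 34 counts in the Proton mice and 21 to 35 in the Gamma mice up to 125 cGy, and 92 and 120 counts and 107 and 101 counts at 150 and 200 cGy. The top doses stood apart from all others, and the slopes over 0 to 125 cGy were -0.08 (SE 0.30) and 0.11 (SE 0.30). With GC and length offsets the slopes were 1.17 and 1.01, with adjusted p-values of 0.0693 and 0.0764.

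Cdh3, P-cadherin, fell with gamma dose. Its counts in the Gamma mice were 165 at 0 cGy, 264 at 5 cGy, 167 at 10 cGy, 195 at 25 cGy and 187 at 50 cGy, and 118, 103, 93, 92 and 87 from 75 to 200 cGy. As for Jup, the 5 lower doses did not overlap the 5 higher ones. This cut was placed after the values were seen, and its share over all tested genes was not counted. Both genes are named for their gamma slopes, so the shared split is a description. The slope was -0.75 (SE 0.16, adjusted p = 0.0162), and -0.73 (SE 0.16, adjusted p = 0.0331) with GC and length offsets. Over 0 to 125 cGy it was -1.01 (SE 0.23) with an adjusted p of 0.179. In the Proton mice Cdh3 had 79 to 186 counts and a slope of -0.28 (SE 0.15, adjusted p = 0.451). Over 0 to 125 cGy the proton slope was -0.70 (SE 0.23, adjusted p = 0.935).

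The actin linker Limd1 rose with gamma dose, with a slope of 0.26 (SE 0.08, adjusted p = 0.092). It had an adjusted p of 0.233 with GC and length offsets. For proton radiation its slope was -0.02 (SE 0.08), with an adjusted p of 0.966. Whether these slopes differ between types was tested with all genes in the slope difference, which called none.

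Of 13 genes of the beta-catenin destruction complex and its nuclear partners, Apc passed upward in both types. Tcf7l1, a repressor of Wnt targets, passed downward for gamma radiation. Apc, the scaffold that helps degrade beta-catenin, had 365 to 452 counts in the Proton mice up to 125 cGy and 520 and 651 at the top doses. In the Gamma mice it had 360 to 459 counts and then 547 and 570. Its slopes were 0.35 (SE 0.07, adjusted p = 0.0186) and 0.29 (SE 0.07, adjusted p = 0.0263), and 0.15 and 0.06 (both SE 0.06) with GC and length offsets, with adjusted p-values of 0.418 and 0.8. The Tcf7l1 gamma slope was -0.28 (SE 0.09, adjusted p = 0.085), and -0.16 (SE 0.07, adjusted p = 0.303) with the offsets. Its proton slope was close to this, at -0.24 (SE 0.09, adjusted p = 0.238). Over 0 to 125 cGy, proton first, the Apc slopes were 0.13 and 0.10 (both SE 0.09). Those of Tcf7l1 were -0.14 and -0.06 (both SE 0.11), and all 4 had adjusted p-values of 0.98 or more.

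None of the 7 tested beta-catenin target genes passed in either type, and without the 75 cGy pair 1 did, for gamma radiation. Their median slope was -0.20 for proton and -0.26 for gamma radiation, against 0.00 and 0.01 over all tested genes. Nkd1, a feedback inhibitor of Wnt signalling, came closest, with a gamma slope of -0.39 (SE 0.13, adjusted p = 0.111), and it was the gene called without the pair, at -0.40 (SE 0.12, adjusted p = 0.0547). Axin2, the most widely used target, had slopes of -0.28 (SE 0.27) and -0.22 (SE 0.26), with adjusted p-values of 0.747 and 0.765. The other 6 genes of the list in the table were below the filter.

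Genes whose level across the 20 mice was most like that of Jup were sought among 9816 genes that averaged 50 counts or more. Among the 5 with the highest Pearson correlation of log2 levels were Ssbp3 (r = 0.874), Creb3l1 (0.874), Nfic (0.857) and Ppp1r9b (0.856). With a line on dose removed in each type they were Ampd2 (r = 0.831), Ccdc28b (0.821), Ltbr (0.791), Eps8l2 (0.789) and Zfp395 (0.785). These 9 had transcripts of 54.2 to 62.3% GC, above the median of 50.4%, and the points share libraries whose GC dependence differs. Among the members, the correlation with Jup was -0.559 for Dsp, -0.495 for Ctnna1, -0.393 for Cdh13 and 0.324 for Cdh11. With dose removed, Dsp stood at -0.155 and Ctnna1 at -0.214. These correlations describe the 20 mice and carry no test.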

How the data were processed

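Aortic RNA from 20 mice was sequenced from stranded, polyA-selected libraries as paired reads of 100 bases. The authors aligned reads to mm9 with STAR 2.5.2a, resampled all libraries to a common depth with PORT and deposited sense-strand read counts per gene. The submitters' processing notes also name CASAVA 1.8.1. Coordinates, exon lengths and transcript GC content came from GENCODE M1, on the same build, and promoter windows from RefSeq, where 5 of the 9 members were matched by symbol.

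Genes averaging 5 counts or more per mouse were fitted in edgeR 4.0.16 (TMM, robust quasi-likelihood) with an intercept and a linear dose slope for each radiation type, and slopes are log2 per 100 cGy. P-values were adjusted by Benjamini-Hochberg over all 13124 tested genes, with a threshold of 0.1. A two-sided exact permutation test of the rank correlation of count with dose was run in each type. Alternatives were DESeq2 1.42.0, library sizes without TMM, other filters and dose scales, 0 to 125 cGy only, offsets for GC content and length fitted in each library, dose as a block, and leaving out mice. The fits were tested on simulated data. Scripts ran in R 4.3.3 and in Python 3.11.15 with pandas 2.3.3, scipy 1.17.1, matplotlib 3.10.9 and numpy 2.4.6.

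The members and gene lists were chosen with earlier results of these data known. Genes named are the members, listed junction and Wnt genes past the threshold, the 5 genes most like Jup on each measure, and marker genes that move with a member. Of the genes that met this rule, 2 are not reported here. Genes of the lists at or near 0 counts, Perp, Cdh5, Nkd1 and Axin2 were named after their values were seen. Nothing says whether libraries shared a preparation batch. Every mouse is a separate animal. P-values of slopes set each slope against the spread of the mice around the trend, and those of the rank test come from permuted doses.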

Additional observations from a re-analysis of the deposited data

Results flagged for a closer look

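On the scale of log2 TMM-scaled CPM, 18 groups were formed by 9 members and 2 radiation types, each of 10 mice. Of these, 3 held a mouse far below the nearest of the others. For independent draws, chance gives about 1 group in 20 with a mouse this far off. Here the mice differ in dose and the 3 groups share 1 outlying mouse, so that rate does not apply directly. In all 3 it was the Proton mouse at 75 cGy that was lowest. The gap to the next mouse was 0.496 of the whole range for Ctnnb1 (4625 counts), 0.519 for Cdh13 (2256 counts) and 0.479 for Pkp4 (2110 counts). On the same scale Cdh2 passed as well in the Proton mice, with a gap of 0.498 for the mouse at 75 cGy, the highest of its group. The scale decides the others: on read counts the gaps of Ctnnb1, Cdh13 and Pkp4 were 0.436, 0.461 and 0.438, which do not pass. On counts Cdh2 passed in both types. Its gaps were 0.756 for the Proton mouse at 75 cGy and 0.513 for the Gamma mouse at 100 cGy, both the highest of their group. The Proton mouse at 75 cGy also had the highest cardiomyocyte and adipocyte marker sums and the lowest smooth muscle sum. The part of such cells in these counts was not tested.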

How the results depend on the processing

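Jup was the 1 member called for the proton slope without TMM, with DESeq2, with a filter of 50 counts in the mean and without the 75 cGy pair, and leaving out 1 mouse gave 0 to 1 called members; the cause was not tested. The Jup gamma slope was -0.35 with GC and length offsets, -0.10 per step of dose rank and -0.10 per unit of log2(dose + 1), the last 2 being other units. Over 0 to 125 cGy, uncalled slopes changed sign, with 2 doses fewer: proton slopes were Ctnnb1 -0.07, Ctnna1 -0.01, Ctnnd1 -0.12, Cdh11 0.11, Cdh13 -0.07, Dsp -0.05 and Pkp4 -0.19, and gamma slopes Ctnnb1 -0.01, Ctnna1 -0.05, Ctnnd1 -0.17, Cdh11 0.15, Dsp -0.0002 and Pkp4 -0.05. Some of these rested on the 75 cGy pair. Over 0 to 125 cGy without it, proton slopes were Ctnna1 0.02, Cdh13 0.02 and Dsp 0.01. They were still reversed for Ctnnb1 (-0.01), Ctnnd1 (-0.07), Cdh11 (0.13) and Pkp4 (-0.11). The gamma slope of Ctnnb1 was then 0.01. With GC and length offsets Ctnnd1 was -0.02 for proton and -0.09 for gamma radiation and Pkp4 -0.01 for gamma radiation, and on log2 dose Ctnnd1 was -0.006 for gamma and Pkp4 -0.002 for proton radiation. Leaving out 1 mouse gave gamma slopes of -0.08 to 0.05 for Ctnnd1 and -0.02 to 0.03 for Pkp4. The other 129 of 151 slopes and 332 of 340 slopes without 1 mouse kept their sign and their side of the threshold. Cdh2 had no value under the filter of 50 counts. With dose as a block, the slope difference called 0 genes. Calls over all genes were 231 for proton and 1004 for gamma radiation, 139 and 618 with 1 count as the filter, 41 and 480 on dose rank, 22 and 45 on log2 dose, 76 and 330 with GC and length offsets and 376 and 1444 without the 75 cGy pair. In the 0 to 125 cGy fit they were 14 and 34, and 54 and 79 with DESeq2. With 1 mouse per dose, no dose has its own error, and depth limits Cdh2 most.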
